A study of Homo sapiens with 6 samples.

Results

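The 6 genes described here encode proteins with which the endoplasmic reticulum (ER) takes in and folds secretory cargo: the BiP co-chaperones DNAJB9 and DNAJC3, the disulphide isomerase PDIA4, the lectin chaperone CALR, the translocon subunit SEC61A1 and MZB1, a chaperone of antibody-secreting cells. The 6 genes were chosen with earlier results of these data known, so counts over them do not rest on an independent choice. For these genes the members were chosen by position, from a list that its authors had selected on the H3K27ac log fold changes. They were the listed H3K27ac regions that overlapped one of these genes or had one of them as the gene of the nearest boundary. This gave 6 of 838 regions, 1 per gene. Because the whole list had been filtered by its authors on the fold changes given below, those fold changes are a description and were not tested.

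H3K27ac is the acetylated histone mark of active promoters and enhancers, and it was measured by ChIP-seq, the sequencing of DNA recovered with an antibody to the mark. The samples were 3 wild-type (WT) human multiple myeloma (malignant plasma cell) lines, RPMI8226, KMS-11 and KMS-12. Every line gave 1 sample with DMSO, the solvent control, and 1 sample with JQ1 at 1 µM for 72 h, so that 6 samples made 6 groups without a replicate. JQ1 is a small molecule that keeps the BET proteins, readers of acetylated histones, from binding acetyl-lysine. Only 1 log fold change per line and region was available, read as log2 of JQ1 over DMSO (a negative value is less H3K27ac after JQ1). No count was given, so the depth is unknown and values are given without an error.

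Plasma cells and the myelomas derived from them secrete large amounts of immunoglobulin. Nascent chains enter the ER through the SEC61 channel, where the chaperone BiP, helped by J-domain proteins such as DNAJB9 and DNAJC3, holds them until they fold. Lectin chaperones such as calreticulin bind their sugars, and disulphide isomerases join their cysteines. The unfolded protein response (UPR), with its sensors IRE1, PERK and ATF6 and its transcription factors XBP1 and ATF4, is known to raise transcription of many such genes when unfolded protein accumulates.

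Of the 6 regions, 5 covered an annotated start of their own gene. Of all listed regions, 48.7% covered an annotated start of any gene (822 regions on chromosomes with promoter windows, GRCh38.p14). The DNAJB9 region reached furthest upstream, from 857 bp before the start to 960 bp after it (chromosome 7, 108569017 to 108570834). It also covered 3 annotated starts of THAP5, a gene of the THAP zinc finger family that runs the opposite way. The DNAJC3 region ran from 645 bp before to 901 bp after the start (chromosome 13, 95676494 to 95678040) and covered the start of DNAJC3-DT, its divergent transcript. Signal of these regions cannot be divided between the paired genes.

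The regions of PDIA4, CALR and SEC61A1 lay almost wholly downstream of the start. The PDIA4 region began 70 bp before it and ended 744 bp after it (chromosome 7, 149027746 to 149028560). For CALR the limits were 74 bp before and 734 bp after (chromosome 19, 12938535 to 12939343). SEC61A1 has 2 annotated starts, and its region covered the downstream one, from 67 bp before to 919 bp after (chromosome 3, 128052370 to 128053356). It began 729 bp past the upstream start and did not cover the start of the divergent lncRNA gene LOC102723759, 195 bp away. The MZB1 region lay inside the gene and began 136 bp after the start (chromosome 5, 139388469 to 139389777), covering 1309 bp of its 2447 bp. In width the 6 regions ran from 809 to 1818 bp, and their median of 1148 bp compared with 1165 bp over all 838.

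**Figure D1:**
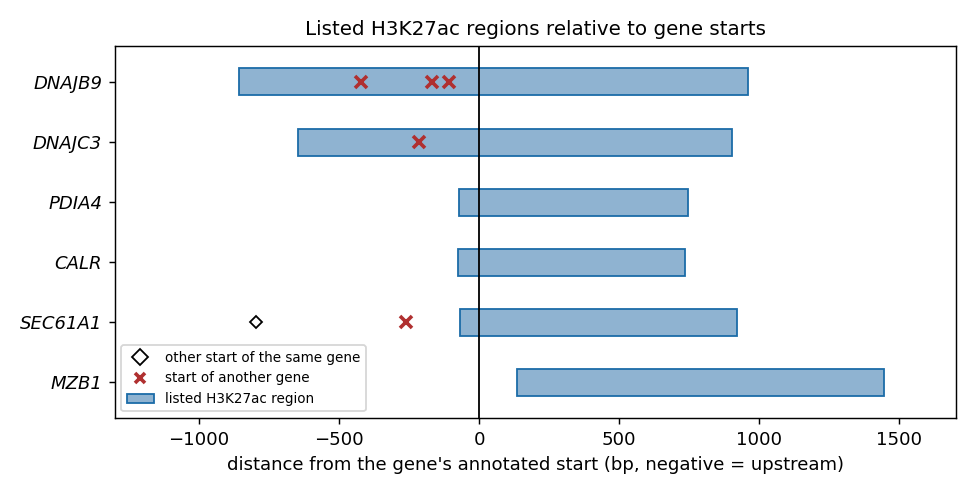
Span of the listed H3K27ac region at each of the 6 genes (bars), as distance in bp from the gene's annotated start (vertical line; for SEC61A1 and PDIA4 the start inside the region), with other starts within 2000 bp marked by diamonds (same gene) and crosses (another gene). Only the MZB1 bar, which begins 136 bp downstream, does not cross the line.

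Promoter windows, 250 bases before to 50 after an annotated start, are shown for 4 members. These are PDIA4, CALR and SEC61A1, whose regions begin close before that start, and DNAJB9, whose region holds a start on each strand. The DNAJC3 region also holds a start on each strand, but its window is not printed here. The sequences are those of RefSeq on GRCh38.p14, written 5′ to 3′ on the gene's strand, and the annotated start is base 251. Capitals mark matches to the motifs listed after them. The windows lay at chr7:108569624-108569923 (DNAJB9, plus strand), chr3:128052187-128052486 (SEC61A1, plus strand), chr19:12938359-12938658 (CALR, plus strand) and chr7:149028441-149028740 (PDIA4, minus strand).
DNAJB9: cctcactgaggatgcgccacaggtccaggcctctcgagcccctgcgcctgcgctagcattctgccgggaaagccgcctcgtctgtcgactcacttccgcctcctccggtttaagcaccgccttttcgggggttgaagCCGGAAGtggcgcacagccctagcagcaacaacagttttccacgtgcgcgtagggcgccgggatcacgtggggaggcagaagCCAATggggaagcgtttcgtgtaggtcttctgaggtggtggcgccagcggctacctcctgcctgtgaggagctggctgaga
SEC61A1: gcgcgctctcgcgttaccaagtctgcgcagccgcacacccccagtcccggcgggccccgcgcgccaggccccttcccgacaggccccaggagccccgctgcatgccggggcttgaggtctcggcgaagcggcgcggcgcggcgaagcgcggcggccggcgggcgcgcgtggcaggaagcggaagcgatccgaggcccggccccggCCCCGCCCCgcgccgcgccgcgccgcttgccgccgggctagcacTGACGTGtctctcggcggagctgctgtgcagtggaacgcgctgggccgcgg
CALR: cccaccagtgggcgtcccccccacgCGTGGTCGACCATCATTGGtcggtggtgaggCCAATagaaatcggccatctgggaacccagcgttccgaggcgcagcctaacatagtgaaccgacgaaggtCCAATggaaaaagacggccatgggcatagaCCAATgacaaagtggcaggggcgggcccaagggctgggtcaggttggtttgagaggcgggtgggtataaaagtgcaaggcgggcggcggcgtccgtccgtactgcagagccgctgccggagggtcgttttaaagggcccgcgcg
PDIA4: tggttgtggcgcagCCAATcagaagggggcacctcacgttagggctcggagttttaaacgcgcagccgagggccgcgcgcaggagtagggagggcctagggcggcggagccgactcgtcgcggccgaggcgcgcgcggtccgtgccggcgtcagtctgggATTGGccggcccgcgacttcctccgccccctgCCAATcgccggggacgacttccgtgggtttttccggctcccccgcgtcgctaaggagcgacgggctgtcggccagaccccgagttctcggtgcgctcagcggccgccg

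Each window was searched on both strands for 8 motifs: the ER stress element ERSE (CCAAT and CCACG with 9 bases between), ERSE-II (ATTGG and CCACG with 1 base between), the core bound by XBP1 and ATF6 (TGACGTG), the longer ACGT core CCACGTCA, the amino acid response element bound by ATF4 (TGATGNAAT), the CCAAT box (CCAAT), an ETS site (CCGGAAG) and a GC box (GGGGCGGGG). An ERSE includes a CCAAT box, and CCACGTCA includes the reverse complement of TGACGTG. All 6 genes had a window, 8 windows in all, because SEC61A1 and PDIA4 have 2 each. CALR held the one ERSE among the 8, on the opposite strand from 225 to 207 bases before its start. Of 35116 windows, 0.0769% held this motif, and of the 742 windows that overlapped a listed region 0.539% did. The CALR match lay upstream of the listed region, outside it. SEC61A1 held TGACGTG at its start, from 1 base before it and inside the listed region, a motif found in 1.97% of all windows and 4.85% of those in listed regions.

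CCAAT boxes were present in 6 of the 8 windows and in 5 of the 6 genes, SEC61A1 being without one, against 34.6% of all windows and 33.8% of those in listed regions. CALR and PDIA4 held 4 and 3 of them in the windows printed above. DNAJB9 held the one ETS site, 113 bases before its start, where 10.3% of all windows and 11.9% of those in listed regions held one. GC boxes were found in DNAJC3 and SEC61A1, against 15.7% and 35.6%. ERSE-II, CCACGTCA and the amino acid response element matched in none of the 8 windows, with 0.0541%, 0.729% and 0.991% of all windows holding them. These are letter matches only, and binding was not measured.

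The windows also differed in base composition. In the 5 windows whose start lay in a listed region, G and C made up 62.7% (CALR) to 79.3% (SEC61A1) of bases, and 24 (DNAJB9) to 52 (SEC61A1) CG dinucleotides were counted. Over the 742 windows in listed regions the medians were 70.7% and 32. MZB1, whose start lay outside its region, had 59.7% and 4 CG dinucleotides.

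**Figure D2:**
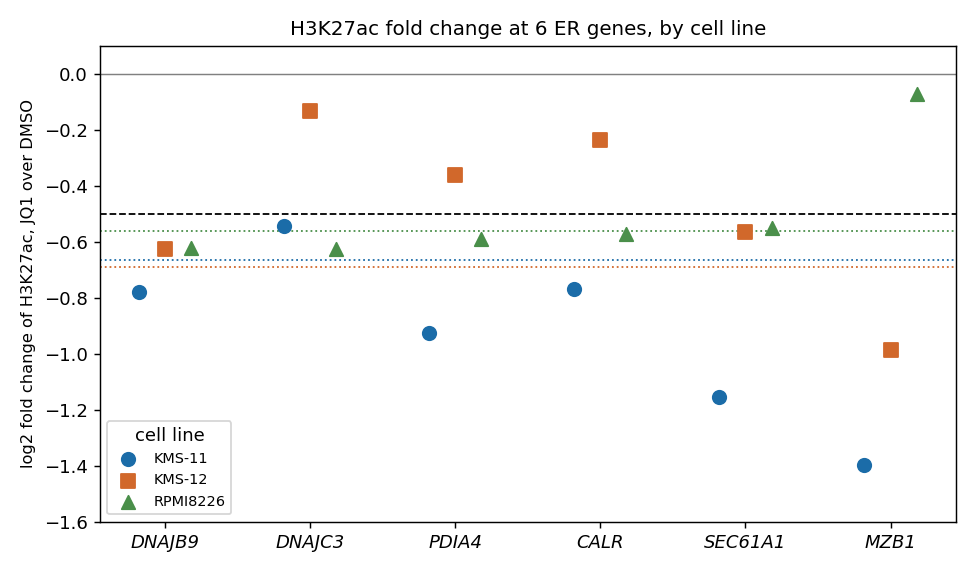
Log2 fold change of H3K27ac (JQ1 over DMSO, y axis) at the 6 genes in KMS-11 (circles), KMS-12 (squares) and RPMI8226 (triangles), 1 deposited value per point; dotted lines are each line's median over all 838 regions and the dashed line is -0.5. KMS-11 has the lowest value at every gene but DNAJC3, and KMS-12 lies above the dashed line at DNAJC3, PDIA4 and CALR.

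All 838 listed regions had 3 values below 0, and each was listed for as many lines as it had values below -0.5, with at least 2 such lines. H3K27ac was therefore lower after JQ1 in every line at all 6 genes by the way the list was made. Below -0.5 in all 3 lines were 2 of the 6 genes, DNAJB9 and SEC61A1, beside 25.4% of all listed regions. By line, 6 of 6 genes were below -0.5 in KMS-11 (83.4% of all listed regions), 3 in KMS-12 (77.7%) and 5 in RPMI8226 (64.3%). The 6 members had medians, according to the authors' deposited table, of -0.85 for KMS-11, -0.46 for KMS-12 and -0.58 for RPMI8226, where the medians of all 838 regions were -0.66, -0.69 and -0.56. The shares and medians were not tested, since the members were listed on these values.

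DNAJB9 (ERdj4), a BiP co-chaperone that is known to hold the sensor IRE1 inactive, had the most even values of the 6. According to the authors' deposited table, its region had -0.78 for KMS-11, -0.62 for KMS-12 and -0.62 for RPMI8226. On the log2 reading this was 41.7%, 35.1% and 35.0% less H3K27ac. The range over the lines was 0.16, where the median range over all listed regions was 0.52. Its ranks among the 838 values of each line, counted from the most negative, were 277, 493 and 337.

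DNAJC3 (P58IPK), a BiP co-chaperone also known as an inhibitor of the kinases PKR and PERK, had the least negative mean of the 6. The values of the authors' deposited table were -0.54 for KMS-11, -0.13 for KMS-12 and -0.63 for RPMI8226, or 31.4%, 8.67% and 35.2% less H3K27ac. It was the one member with its lowest value in RPMI8226, and KMS-12 was close to no change. By the mean of the 3 lines, -0.43 according to the authors' deposited table, it ranked 804 of 838.

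PDIA4 (ERp72), a disulphide isomerase of the ER lumen, showed a graded order of lines. The PDIA4 region had, according to the authors' deposited table, -0.92 for KMS-11, -0.36 for KMS-12 and -0.59 for RPMI8226, which is 47.3%, 22.1% and 33.6% less. KMS-11 and KMS-12 were thus 0.56 apart on the log2 scale. CALR, the calcium-binding lectin chaperone calreticulin, had the same order of lines. At CALR the authors' deposited table listed -0.77 for KMS-11, -0.24 for KMS-12 and -0.57 for RPMI8226, or 41.3%, 15.1% and 32.8% less. The Euclidean distance between PDIA4 and CALR over the 3 values, 0.201, was the smallest of the 15 pairs of members.

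SEC61A1, the pore-forming subunit of the translocon, had one line well below the others. According to the authors' deposited table, it had -1.15 for KMS-11, -0.57 for KMS-12 and -0.55 for RPMI8226. This is 55.1%, 32.5% and 31.8% less, and its KMS-11 value ranked 58 of 838. KMS-12 and RPMI8226 were only 0.02 apart.

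MZB1 (pERp1), which aids the assembly of immunoglobulin in B and plasma cells, had both the lowest and the least negative of the members' 18 values. The MZB1 region had, according to the authors' deposited table, -1.40 for KMS-11, -0.99 for KMS-12 and -0.07 for RPMI8226, or 62.0%, 49.5% and 4.77% less. Its rank among the 838 was 20 in KMS-11, 190 in KMS-12 but 805 in RPMI8226. Its range of 1.33 over the lines was the widest of the members, and the distances from MZB1 to the other 5 members were 0.682 to 1.33, against 0.201 to 0.754 among those 5. Along with SEC61A1 it was below -1 in KMS-11, as were 13.5% of all listed regions. No member was below -1 in KMS-12 or RPMI8226, beside 21.2% and 4.42% of all listed regions.

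**Figure D3:**
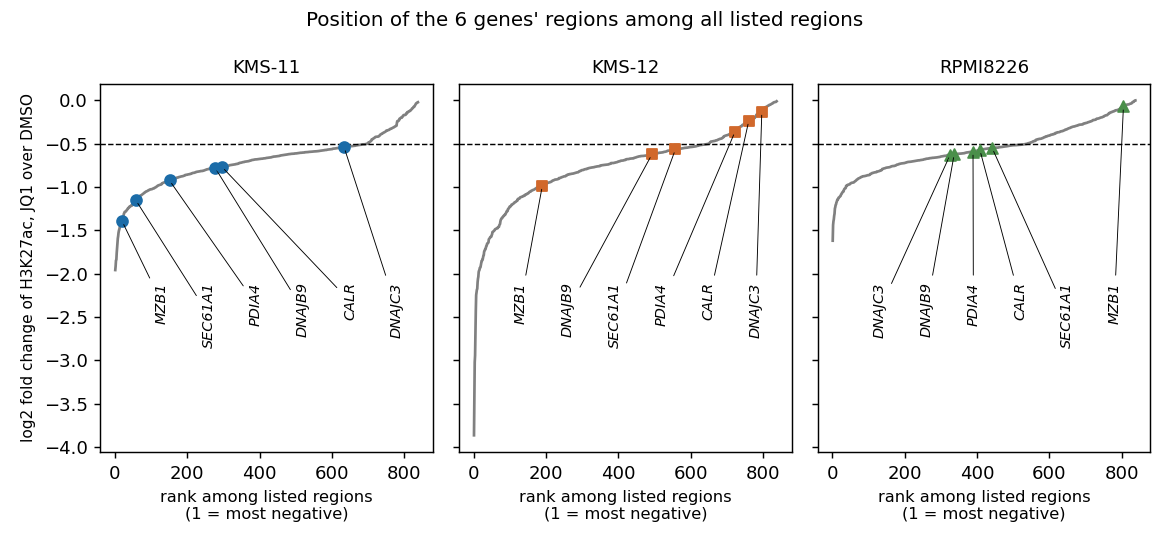
Fold changes of all 838 listed regions in each line, sorted from the most negative (x axis, rank; y axis, log2 fold change of JQ1 over DMSO), with the 6 genes marked. In KMS-11 the marks run from rank 20 (MZB1) to 634 (DNAJC3), in KMS-12 from 190 to 797, and in RPMI8226 5 genes sit between ranks 326 and 442 with MZB1 at 805.

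The order of the lines differed among the members. KMS-11 had the lowest value in 5 of 6 (33.8% of all listed regions), RPMI8226 in 1 (21.6%) and KMS-12 in 0 (44.6%). The value nearest 0 was that of KMS-12 in DNAJC3, PDIA4 and CALR (28.6% of all listed regions) and that of RPMI8226 in DNAJB9, SEC61A1 and MZB1 (48.3%). For DNAJB9 and SEC61A1, KMS-12 and RPMI8226 differed by 0.02 or less, so that their order carries little weight without a replicate. RPMI8226 was the most uniform line apart from MZB1, with the other 5 genes between -0.63 and -0.55 according to the authors' deposited table. The span is bounded by the filter at -0.5, which these 5 passed in RPMI8226. Low values were also rare in this line, with 4.42% of all listed regions below -1, against 13.5% in KMS-11 and 21.2% in KMS-12. The member values closest to -0.5 according to the authors' deposited table were DNAJC3 in KMS-11 (-0.54) and SEC61A1 in RPMI8226 (-0.55) on the lower side, and PDIA4 (-0.36) and CALR (-0.24) in KMS-12 on the upper side.

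The listed regions whose 3 values were closest to each member were found by Euclidean distance over the 3 lines, 2 per member. For SEC61A1 the closest was that of XBP1, the transcription factor of the IRE1 branch, at 0.0751, with -1.08, -0.57 and -0.55 (KMS-11, KMS-12, RPMI8226) according to the authors' deposited table. The next was near the lncRNA gene LOC105375578, 163 bp outside it, at 0.121. The closest to DNAJB9 lay inside SLC19A1 (0.0368), 6928 bp from its boundary, and then came one at SLC29A2 (0.0520). Those to DNAJC3 were in BLM (0.0203) and at BTG1 (0.0442), those to PDIA4 at TUBB4B (0.0339) and HHIPL1 (0.0502), and those to CALR at RNF114 (0.0306) and SIRT1 (0.0440). All the regions named for DNAJB9, DNAJC3, PDIA4 and CALR were thus closer to their member than XBP1 was to SEC61A1. MZB1 had no region as near, its closest being at ALDH1L2 (0.219) and BEND3 (0.221). With 3 values per region, these distances describe likeness in 3 lines only.

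A wider list of 96 genes for protein folding, targeting and translocation in the ER, which includes the 6, had a listed region at 18 genes (18.8%), where 4.11% of 20056 annotated protein coding genes had one. All 6 members have a region by the rule that chose them, and without them 12 of 90 genes (13.3%) did. The list was also drawn up with earlier results known, so these shares do not support an excess. Of the 18, 6 were below -0.5 in all 3 lines, namely HYOU1, CRELD2, FKBP11 and SEC63 besides DNAJB9 and SEC61A1. All listed regions had a share of 25.4% in that class. In KMS-11, 17 of the 18 were below -0.5 (83.4% of all listed regions), in RPMI8226 16 (64.3%) and in KMS-12 9 (77.7%). The 2 exceptions in RPMI8226 were MZB1 and TXNDC5. The 9 genes not below -0.5 in KMS-12, which the filter requires to pass in both other lines, stood beside 22.3% of all listed regions in that class. Over the 18 regions the median according to the authors' deposited table was -0.80 for KMS-11, -0.50 for KMS-12 and -0.64 for RPMI8226. These counts were not tested, and genes without a listed region may have failed the filter or carried no peak.

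Where lines are not named, values follow the order KMS-11, KMS-12, RPMI8226. Among BiP and its helpers, 5 of 19 genes had a region. This and the class counts below stand beside 4.11% of protein coding genes with a region, and were not tested. HYOU1, a large ER chaperone that exchanges the nucleotide of BiP, had -1.13 for KMS-11, -0.90 for KMS-12 and -0.64 for RPMI8226 according to the authors' deposited table. The region assigned to CRELD2, an ER stress-induced protein, had -0.73, -0.77 and -0.66 according to the authors' deposited table but lay 6067 bp outside the gene. HSPA5, which encodes BiP itself, and HSP90B1, the gene of GRP94, had no listed region.

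Disulphide isomerases and their oxidation partners had 6 of 20 genes listed. None was below -0.5 in all 3 lines, where 25.4% of all listed regions were, and so few regions do not set the class apart. TXNDC5, an isomerase abundant in plasma cells, had -1.33 for KMS-11, -0.99 for KMS-12 and -0.39 for RPMI8226 according to the authors' deposited table. MZB1, HYOU1 and SEC63 had this order of lines too. So did DNAJB9 and SEC61A1, but there KMS-12 and RPMI8226 were nearly equal and their order carries little weight. Of all listed regions, KMS-11 was lowest in 33.8% and RPMI8226 nearest 0 in 48.3%. The TXNDC5 region also overlapped the readthrough gene BLOC1S5-TXNDC5. P4HB, the gene of protein disulphide isomerase itself, had -0.95, -0.47 and -0.99 according to the authors' deposited table. PRDX4, a peroxiredoxin of the ER, had -0.60, -0.39 and -0.98 according to the authors' deposited table. RPMI8226 was lowest in 7 of the 18 genes, P4HB and PRDX4 among them, beside 21.6% of all listed regions. At P4HB it was close to KMS-11. The thioredoxin-like TXNDC11, whose region overlapped TXNDC11-AS1, had -0.57, -0.08 and -0.82 according to the authors' deposited table. ERO1A, the oxidase that recharges the isomerases, was the only gene of the 18 above -0.5 in KMS-11, with -0.37, -0.52 and -0.70 according to the authors' deposited table.

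CALR was the one listed gene of 8 for lectin chaperones and glucose trimming; CANX, the gene of its membrane-bound relative calnexin, had no listed region. FKBP11, a prolyl isomerase known from secretory cells, was the one of 9 in its class and had the lowest mean of the 18, with -1.05 for KMS-11, -1.16 for KMS-12 and -0.73 for RPMI8226 according to the authors' deposited table.

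Of 14 translocon genes, 3 were listed. SEC61G, the gamma subunit of the same channel as SEC61A1, had -1.21 for KMS-11, -0.05 for KMS-12 and -0.50 for RPMI8226 according to the authors' deposited table, and its region was shared with SEC61G-DT. SEC63, a J-domain protein that brings BiP to the channel, had -0.82, -0.74 and -0.62 according to the authors' deposited table. In KMS-11 both listed SEC61 subunit genes were below -1, beside 13.5% of all listed regions. In KMS-12 SEC61G lay near 0 and SEC61A1 below -0.5, as were 77.7% of all listed regions. SRP72 of the signal recognition particle was the one of 8 targeting genes, with -0.70, -0.22 and -0.73 according to the authors' deposited table. Its region overlapped LOC124900706. HM13, signal peptide peptidase, was the one of 6 in its class, with -0.77, -0.03 and -0.77 according to the authors' deposited table. None of 12 oligosaccharyltransferase genes had a region, where 4.11% of protein coding genes had one.

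**Figure D4:**
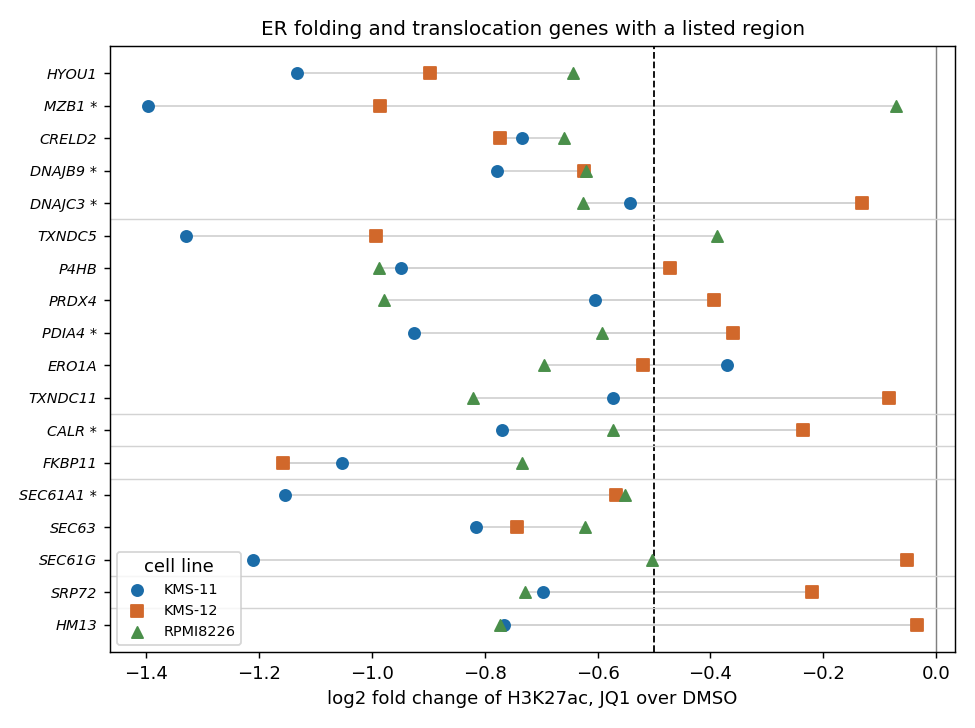
Log2 fold change of H3K27ac (JQ1 over DMSO, x axis) at the 18 ER folding and translocation genes with a listed region, 1 deposited value per line and gene; asterisks mark the 6 genes described first, grey horizontal lines separate the classes and the dashed line is -0.5. The KMS-12 squares lie right of the dashed line in 9 genes, the RPMI8226 triangles in 2 and the KMS-11 circles in 1.

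Genes of the UPR and of ER-associated degradation were set beside the members as values only. Of 34 annotated genes of that list 9 had a region, beside 4.11% of protein coding genes. There were 10 regions in all because SEL1L had 2. Of the 10 regions, 9 were below -0.5 in all 3 lines, beside 25.4% of all listed regions. Their median according to the authors' deposited table was -0.82 for KMS-11, -0.76 for KMS-12 and -0.67 for RPMI8226. In KMS-12 10 of 10 were below -0.5 and 3 of the 6 members were, beside 77.7% of all listed regions, and the difference was not tested. XBP1, ATF4 and HERPUD1 had -0.57, -0.58 and -0.57 in KMS-12 according to the authors' deposited table, near SEC61A1 and DNAJB9. The remaining regions ran from -0.56 (EDEM3) to -1.85 (SEL1L) in KMS-12, with ERN1 at -1.37 and DDIT3 at -1.48, according to the authors' deposited table. An annotated start was covered by 7 of the 10 regions and 5 of the 6 member regions, beside 48.7% of all listed regions. The ERN1 and SEL1L regions covered no start of their own gene. PPP1R15B, a phosphatase subunit that reverses PERK signalling, was the one exception to 3 lines, with -0.03 in KMS-11 according to the authors' deposited table, while every member was below -0.5 there.

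**Figure D5:**
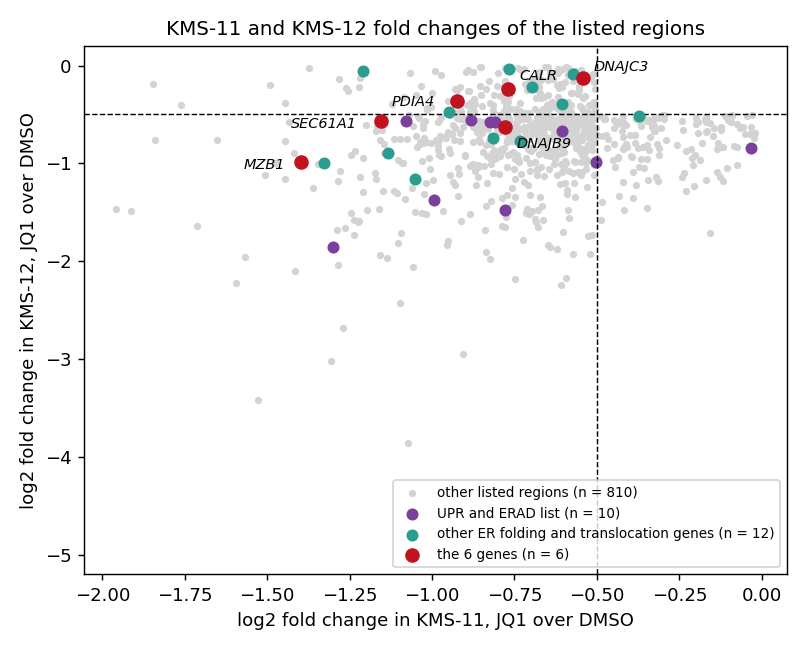
Log2 fold changes in KMS-11 (x axis) and KMS-12 (y axis) of all 838 listed regions, JQ1 over DMSO, with the 6 genes, the other 12 ER folding and translocation genes and the 10 UPR and ER-associated degradation regions in colour; dashed lines are at -0.5. PDIA4, CALR and DNAJC3 lie above the horizontal line, as do 6 of the other 12 ER genes and 0 of the 10 UPR regions.

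The list allowed only a partial check of cell type. Of 11 plasma cell markers, IRF4, XBP1 and MZB1 had a listed region, and of 6 B cell, 5 T and NK cell and 5 myeloid markers 0 did. Of all protein coding genes, 4.11% had a listed region. MZB1 has one by the rule that chose the members. A list of lowered regions holds no level of H3K27ac in untreated cells, so the markers do not test the labels.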

How the data were processed

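H3K27ac ChIP-seq of 6 samples (3 lines, DMSO or JQ1) was available as 1 table of 838 regions. The deposited values are log2 fold changes, 1 per line, made by the authors; the file headers say LFC, and the log base and the numerator are a reading. DESeq2, MACS2, hg38 and GRCh38.p13 come from the submitters' processing notes, which state no role for them. Read alignment, peak calling and library scaling are otherwise not given in the sources used here. Therefore a change of all H3K27ac in a line could be hidden or spread over regions. The number of lines in common (2 or 3) is also deposited and equalled the values below -0.5 in all 838 regions.

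Each region went to all overlapping genes of RefSeq GRCh38.p14 (protein coding or lncRNA), or else to the gene of the nearest boundary. Starts and sequences came from the RefSeq promoter windows, which cover no start on chromosome 8. Widths count both ends. Assignment and motif search were tested on planted cases. Python 3.11.15, pandas 2.3.3, numpy 2.4.6 and matplotlib 3.10.9 were used. The 3 within-line differences of a region were not tested, since the authors had picked the regions by those very values, and no line has a replicate. Named genes were the 6 members, genes sharing their regions, listed genes of the 2 ER lists and the 2 closest regions per member; HSPA5, HSP90B1 and CANX were added afterwards. The members and gene lists were chosen with earlier results of these data known.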

Additional observations from a re-analysis of the deposited data

How the results depend on the processing

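Of the 6 members, 2 were below -0.5 in all 3 lines. With a threshold of -1 the count was 0, and with -0.6 it was 1 (DNAJB9). When 1 line was left out and both others had to be below -0.5, the count ran from 2 to 5 (5 without KMS-12, 3 without RPMI8226, 2 without KMS-11). The median over the 6 members of the mean log2 fold change, -0.65, was -0.58 with the median of the lines and -0.72 to -0.50 with 1 line left out. When each line was centred on its median over all listed regions it was -0.011, and the means of DNAJC3 (0.21), PDIA4 (0.013) and CALR (0.11) turned positive, which by construction says only that these 3 were less negative than the typical listed region. The number of assigned regions was 6 under each of the 3 other assignments. The wider ER list had 17 genes in place of 18 under the 2 that were run for it, overlap with the gene body and a boundary within 1 kb. The ER stress motifs matched in 2 members and the short core CCACG in 6. That core is in 38.1% of all windows and 58.5% of those in listed regions. The amino acid response element matched in 0 members and its part TGATG in 3. TGATG is in 32.9% of all windows and 14.7% of those in listed regions. Fold changes without counts limit every value: no depth, interval or floor could be given. Every deposited value is already a difference between JQ1 and DMSO of 1 line. The 3 differences of a region were not tested against 0, because the list holds only regions with 3 values below 0.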

Other observations

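The listed region next to each member on its chromosome was looked up, as a description. For MZB1 it lay 1526 bp from the MZB1 region, inside the neighbouring gene PROB1 and 1391 bp upstream of MZB1 (chromosome 5, 139391304 to 139392325). This region had, according to the authors' deposited table, -0.52 for KMS-11, -0.83 for KMS-12 and -0.27 for RPMI8226. RPMI8226 was nearest 0 in both regions, as in 48.3% of all listed regions, while KMS-12 rather than KMS-11 was lowest at PROB1. No other member had a second listed region within 100 kb. The next region lay 142.5 kb from that of PDIA4, at EZH2, a histone methyltransferase gene, with -1.01, -0.95 and -0.14 (same order of lines) according to the authors' deposited table. It lay 145.3 kb from that of CALR, at HOOK2 and JUNB, the latter an AP-1 transcription factor gene, with -0.59, -0.47 and -0.78 according to the authors' deposited table. For DNAJB9, DNAJC3 and SEC61A1 the next listed regions, at NAMPT, IPO5 and RAB43, were over 1 Mb away.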
